A study of Mus musculus with 10 samples.

Results

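The genes described here are 8 secreted or membrane-bound cytokines through which stroma keeps lymphoid and myeloid cells alive or alerts them: Il7, Il15, Il33, Il34, Tslp, Csf1, Kitl and Flt3l. They were chosen by name, and all 8 were present among the 47643 genes of the deposited tables. The libraries hold RNA of podoplanin-positive mesenchymal cells from the Peyer's patches, the lymphoid follicles of the small intestinal wall, of wild-type C57BL/6 mice. The cells were negative for CD45, EpCAM1, TER119 and CD31, which mark leukocytes, epithelium, erythroid cells and endothelium, and a gate on the adhesion molecule MAdCAM1 divided them into 5 libraries of MAdCAM1-negative cells (MCi) and 5 of MAdCAM1-positive cells (MRC), whose profiles the study set side by side. The labels do not say how many animals a library holds or which libraries came from separate animals, so each p-value below describes variation among these libraries alone, part of which may be technical. Both groups are defined by surface antigens, and Madcam1 itself read 0 to 2.38 CPM over MCi and 30.4 to 86.1 over MRC libraries.

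Each of these cytokines feeds a defined group of receptors. IL-7 and TSLP share the receptor chain encoded by Il7r, IL-7 pairing it with the common gamma chain of Il2rg and TSLP with the chain of Crlf2; IL-7 keeps naive lymphocytes and innate lymphoid cells alive. IL-15 is presented on the alpha chain of Il15ra to natural killer cells and intraepithelial lymphocytes, which bind it through the chains of Il2rb and Il2rg. IL-33 is stored in the nucleus of stromal and epithelial cells and, when released, acts through Il1rl1 (ST2) and Il1rap. CSF1 and IL-34 are unrelated in sequence but bind the same macrophage receptor, CSF1R, and IL-34 also binds PTPRZ1. KIT ligand (Kitl) sustains mast cells and the interstitial cells of Cajal, the pacemakers of gut muscle, and FLT3 ligand (Flt3l) drives dendritic cell development.

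Libraries held 3941032 to 8738115 total exon reads, and 3 reads corresponded to 0.311 to 0.777 CPM, which here are exon reads scaled to the library total over the genes kept by the filter on low counts, times its TMM (trimmed mean of M values) factor. Libraries numbered 4 and 5 were deeper (6142562 to 8738115 reads) than those numbered 1 to 3 (3941032 to 4761017 reads) in both groups. The labels name no batch, and values are given within these numbers where they differ. MRC4 and MRC5 stood apart: the summed level of 7 epithelial markers was 13928 and 18206 CPM there, 10.7 to 2264 CPM in MRC1 to MRC3 and 13.6 to 984 CPM in MCi. The 6 fibroblast markers summed to 12733 to 66231 CPM and were lowest in those same 2 libraries (14161 and 12733 CPM). Mitochondrial genes took 6.66% and 4.28% of their exon reads, against 0.706% to 1.58% in the other libraries. The 6 leukocyte markers in the tables, all detected, summed to 1.11 to 2.90 CPM over MCi and 1.04 to 24.8 over MRC libraries, highest in MRC5. The 7 endothelium markers, all detected, summed to 18.8 to 35.1 and 12.3 to 62.9 CPM; Tek among them read 8.92 to 33.3 and 1.42 to 60.1 CPM, while Pecam1 did not exceed 2.40 CPM. In such bulk samples, fewer cells of a type and less RNA per cell cannot be told apart.

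The cytokine genes covered a wide span of levels per exon length. In deposited RPKM, which divides exon reads by exon length and by the reads in genes, Il33 had the highest mean in both groups, 116 ± 66.6 (SD, n = 5) in MCi and 142 ± 57.5 in MRC. Csf1 followed with 80.4 ± 23.4 and 50.9 ± 23.6 RPKM, Il34 with 67.3 ± 46.9 and 27.3 ± 11.7 RPKM, and Kitl with 24.5 ± 9.05 and 13.9 ± 1.98 RPKM. Flt3l (10.1 ± 4.29 and 11.6 ± 1.93 RPKM), Il7 (7.52 ± 2.52 and 8.73 ± 2.77 RPKM), Il15 (4.48 ± 1.16 and 7.99 ± 4.46 RPKM) and Tslp (1.38 ± 0.191 and 1.89 ± 1.51 RPKM) were lower. This order by means was the same in MCi and MRC, but the ranges of neighbours overlapped at every step except between Il15 and Tslp in MCi. Within single libraries, Il33 exceeded Csf1 in 5 of 5 MRC libraries and in 2 of 5 MCi libraries, Csf1 exceeded Il34 in 3 of 5 libraries of each group, and Tslp was lowest in all 10 libraries.

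**Figure D1:**
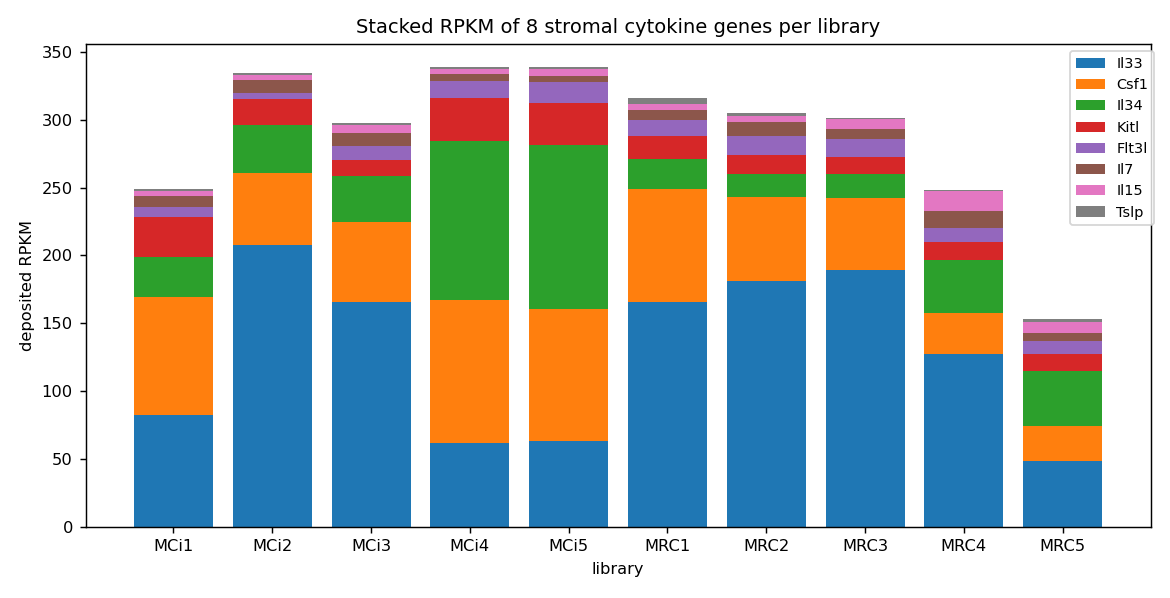
Stacked bars of deposited RPKM (y axis) of the 8 cytokine genes in each of the 10 libraries (x axis). Il33 made up 18.2% to 62.1% of the sum in MCi and 31.7% to 62.8% in MRC, whereas Il34 reached its largest share, 35.5%, in an MCi library and its smallest, 5.51%, in an MRC library.

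None of the 7 genes with enough reads to be tested passed the threshold between MRC and MCi over all 10 libraries (edgeR quasi-likelihood test, adjusted p of 0.05 over 12127 genes), where 0.437% of all genes tested did. Unadjusted, 2 of the 7 had p under 0.05, as did 16.7% of all genes tested. DESeq2 called 0 of 7 (7.02% of all genes) and limma on log2(RPKM + 1) 0 of 8 (2.16%). Without MRC4 and MRC5, edgeR called 0 of 7, against 1.03% of all genes. Tslp did not pass the filter on low counts. Of the 7, 4 had a fitted change above 0 (higher in MRC) and 3 below 0, with a median log2 fold change of 0.44; over all genes tested, 51.0% were above 0, with a median of 0.01. The members fell into those with a higher mean in MRC (Il15, Il33, Il7 and Flt3l) and those with a higher mean in MCi (Il34, Kitl and Csf1).

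**Figure D2:**
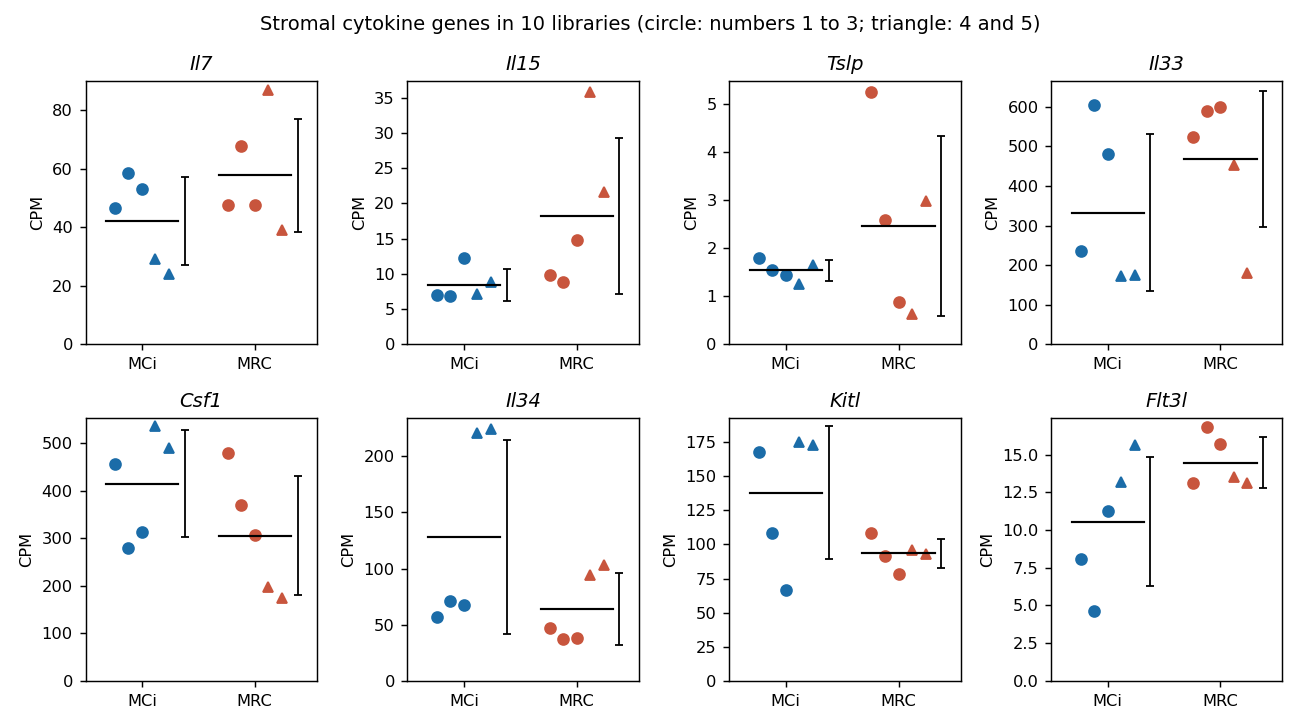
CPM (y axis, from 0) of each cytokine gene in 5 MCi and 5 MRC libraries; circles are libraries numbered 1 to 3, triangles those numbered 4 and 5, lines are means and the bars beside them 1 SD. The groups overlap for all 8 genes, and for Il34 the triangles lie above the circles in both groups.

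Of the ligands of the macrophage receptor CSF1R, Il34 gave the clearest division once libraries of like number were compared. Il34 (ENSMUSG00000031750, GRCm38 chromosome 8, 110741829 to 110805924, minus strand) read 56.8, 70.7, 67.5, 220.5 and 225 CPM over MCi 1 to 5. MRC 1 to 5 read 47.3, 37.0, 38.4, 94.3 and 103 CPM. The groups overlap as a whole, with libraries 4 and 5 high in each, but MRC lay below MCi within numbers 1 to 3 and again within numbers 4 and 5. Such a separation in both sets held for 4.33% of all genes tested lower in MRC and for another 2.38% higher in MRC. Among the 7 tested members it held for Il34 alone. Over all libraries the log2 fold change (MRC over MCi) came to −0.999 ± 0.49 (with its SE; edgeR adjusted p = 0.343). It was −0.66 ± 0.19 in numbers 1 to 3 alone (edgeR adjusted p = 0.207, 0 of 7 members and 0.801% of all genes past the threshold). In numbers 4 and 5 alone it was −1.24 ± 0.16 (edgeR adjusted p = 0.00364), where 4 of 8 members (Il34, Csf1, Kitl and Il15) and 26.2% of all genes passed. With the library set as a covariate (a fit added once the data had been seen) it was −0.87 ± 0.15 (edgeR adjusted p = 0.0183), and Il34 was then the single member to pass, against 1.70% of all genes. Adjusted p ranged from 0.00364 to 0.621 over all settings.

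Markers of other cell types, set beside Il34, followed it in part. The 5 mesothelium markers, all detected in MCi, summed to 109, 76.0, 17.7, 691 and 730.0 CPM over MCi 1 to 5. They summed to no more than 4.88 in any MRC library. The MCi libraries highest in Il34 were thus also highest in these genes. Among MCi1 to MCi3 the orders differed, as MCi1 had the highest mesothelium sum and the lowest Il34 (56.8 CPM). The epithelium sums over MCi were highest in MCi2 (984 CPM), above MCi4 and MCi5 (688 and 678 CPM). In MRC, where the mesothelium sums were near 0, Il34 was highest in MRC4 and MRC5 (94.3 and 103 CPM). These libraries had epithelial marker sums of 13928 and 18206 CPM and mitochondrial shares of 6.66% and 4.28%. Ano1, the chloride channel gene of interstitial cells of Cajal, held 10.8, 10.6, 4.31, 46.5 and 63.6 CPM over MCi 1 to 5, against 1.91, 2.07, 1.53, 6.61 and 8.14 CPM over MRC 1 to 5. The 3 Cajal cell markers together (Kit, Ano1 and Etv1) summed to 59.2 to 124 CPM over MCi libraries and 20.97 to 52.4 over MRC libraries. MRC1 (35.1 CPM) exceeded MRC4 (33.1 CPM) in this sum. Etv1 read 45.1, 61.2, 69.2, 72.9 and 46.8 CPM over MCi 1 to 5, with MCi5 below MCi2 and MCi3. Over MRC 1 to 5 it read 33.0, 20.5, 19.4, 26.4 and 35.8 CPM. Kit did not exceed 8.54 CPM and was at 0 in MCi3, MRC3 and MRC4. The part of these cells in the Il34 values was not tested.

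**Figure D3:**
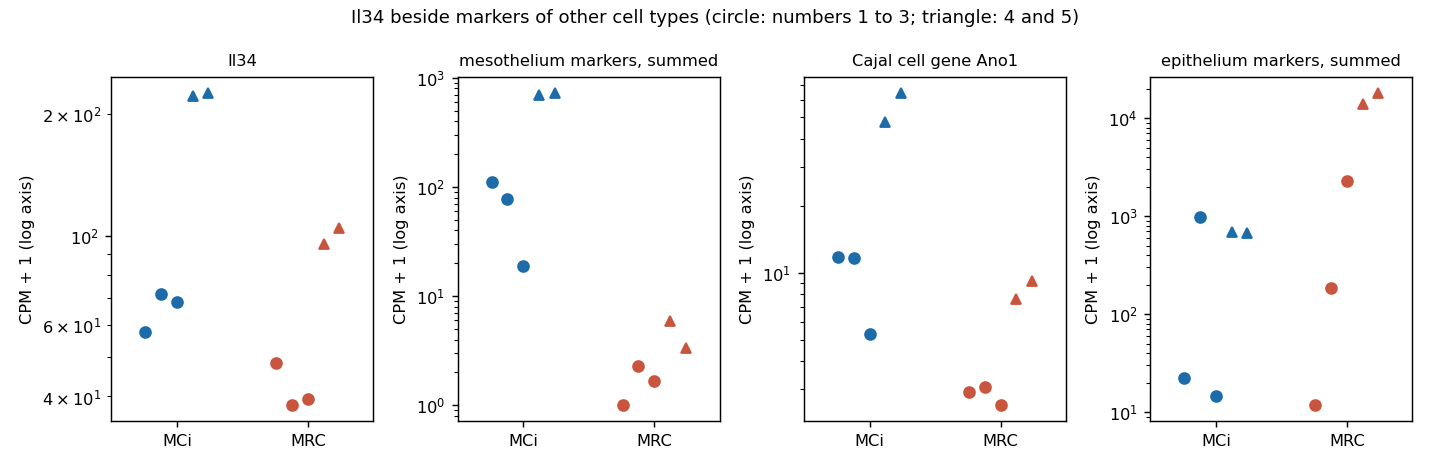
CPM + 1 on a log axis of Il34, of the summed 5 mesothelium markers, of Ano1 and of the summed 7 epithelium markers in each library (circles, numbers 1 to 3; triangles, numbers 4 and 5). MCi4 and MCi5 are highest for Il34, mesothelium markers and Ano1, and MRC4 and MRC5 are highest for epithelium markers. The other Cajal cell markers, Etv1 and Kit, are not shown.

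Csf1, the other CSF1R ligand gene (ENSMUSG00000014599, chromosome 3, 107741048 to 107760469, minus strand), was at 456, 280.4, 314, 536 and 490.2 CPM in MCi 1 to 5. It was at 479.6 CPM in MRC1, 371 in MRC2, 308 in MRC3, 199 in MRC4 and 174 in MRC5. Only MRC4 and MRC5 lay below all MCi libraries; MRC1 to MRC3 lay inside the MCi range. The log2 fold change was −0.44 ± 0.31 (SE, n = 5 per group; edgeR adjusted p = 0.517). It was −0.10 ± 0.25 without MRC4 and MRC5 (edgeR adjusted p = 0.907) and turned to 0.14 ± 0.24 in numbers 1 to 3 alone. In numbers 4 and 5 alone, where 26.2% of all genes passed, the change was −1.53 ± 0.18 (edgeR adjusted p = 0.00249). The libraries with low Csf1 had epithelial marker sums of 13928 and 18206 CPM. Their 6 fibroblast markers summed to 14161 and 12733 CPM, against 54352 to 66231 CPM in MRC1 to MRC3 and 22198 to 41710 CPM in MCi. Pdgfra alone, a fibroblast receptor gene, read 269 and 274 CPM there, 717 to 934 CPM in MRC1 to MRC3 and 1161 to 2357 CPM in MCi. MRC1 to MRC3 thus lay below all MCi libraries for Pdgfra but inside the MCi range for Csf1. The part of epithelium or fibroblasts in the Csf1 values was not tested.

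Kitl and Flt3l encode membrane-anchored growth factors that can be shed. Kitl (ENSMUSG00000019966, chromosome 10, 100015630 to 100100413) read 168, 108, 66.3, 175 and 173 CPM over MCi 1 to 5. MRC 1 to 5 read 109, 91.4, 78.6, 95.7 and 92.8 CPM, a narrow band in which MRC4 and MRC5 did not stand apart. MCi3 lay below all MRC libraries, and MCi1, MCi4 and MCi5 above all of them. The mesothelium markers summed to 109, 76.0, 17.7, 691 and 730.0 CPM over MCi 1 to 5 and to at most 4.88 CPM in MRC. MCi3 was the lowest MCi library in both, but MCi1 had Kitl near the level of MCi4 and MCi5 at a lower sum. All MRC libraries had more Kitl than MCi3 at lower sums. The Cajal cell sums were 59.2, 72.9, 73.5, 124 and 119 CPM over MCi 1 to 5 and at most 52.4 CPM in MRC. Among MCi libraries they were lowest in MCi1, where Kitl was 168 CPM, and not in MCi3. The part of either cell type in the Kitl values was not tested. The log2 fold change was −0.56 ± 0.26 (edgeR adjusted p = 0.299) and −0.57 ± 0.31 without MRC4 and MRC5 (edgeR adjusted p = 0.526). In numbers 4 and 5 alone, where 26.2% of all genes passed, it was −0.95 ± 0.16 (edgeR adjusted p = 0.00976). It was −0.29 ± 0.31 in numbers 1 to 3 alone (edgeR adjusted p = 0.869).

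Flt3l (ENSMUSG00000089989, chromosome 7, 45131189 to 45136432, minus strand) read 8.11, 4.65, 11.2, 13.2 and 15.7 CPM over MCi 1 to 5. MRC 1 to 5, with the smaller spread, read 13.1, 16.8, 15.7, 13.5 and 13.1 CPM. MRC1 to MRC3 lay above MCi1 to MCi3, whereas MRC4 and MRC5 fell within the range of MCi4 and MCi5 or just below it. The log2 fold change was 0.44 ± 0.31 over all libraries (edgeR adjusted p = 0.511), 0.93 ± 0.37 in numbers 1 to 3 (edgeR adjusted p = 0.437) and −0.18 ± 0.34 in numbers 4 and 5 (edgeR adjusted p = 0.736).

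The promoters of the 3 growth factor genes with an entry in RefSeq's promoter table (GRCm38.p6) are shown because their within-library balance is compared below. Windows were examined for 4 of the 8 genes, namely Csf1, Kitl, Flt3l and Il33. Each window runs from 250 bases before to 50 after the annotated start, 5′ to 3′ on the gene's strand. Capitals mark matches, on either strand, to an NF-kB-like motif, an interferon response element (ISRE-like), TGANTCA (AP-1-like), TTCNNNGAA (STAT-binding GAS-like) or the core promoter box TATAAA.
Csf1, chr3:107760420-107760719, minus strand: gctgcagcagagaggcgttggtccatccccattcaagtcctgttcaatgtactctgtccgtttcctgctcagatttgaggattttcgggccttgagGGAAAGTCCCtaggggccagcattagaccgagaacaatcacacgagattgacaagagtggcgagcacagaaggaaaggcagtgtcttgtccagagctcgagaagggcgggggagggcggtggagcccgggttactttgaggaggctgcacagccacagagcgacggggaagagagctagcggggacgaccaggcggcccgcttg
Kitl, chr10:100015571-100015870, plus strand: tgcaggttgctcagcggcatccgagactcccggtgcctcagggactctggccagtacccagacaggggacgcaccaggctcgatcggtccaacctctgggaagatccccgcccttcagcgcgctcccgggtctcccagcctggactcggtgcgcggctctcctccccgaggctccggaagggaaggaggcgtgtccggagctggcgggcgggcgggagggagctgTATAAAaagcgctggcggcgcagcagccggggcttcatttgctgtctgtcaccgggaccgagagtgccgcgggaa
Flt3l, chr7:45136383-45136682, minus strand: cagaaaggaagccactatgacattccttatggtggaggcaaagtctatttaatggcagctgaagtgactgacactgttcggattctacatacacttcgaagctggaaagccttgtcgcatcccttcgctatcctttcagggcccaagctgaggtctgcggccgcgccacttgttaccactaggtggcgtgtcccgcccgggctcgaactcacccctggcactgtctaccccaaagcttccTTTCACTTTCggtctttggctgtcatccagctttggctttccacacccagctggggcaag
Csf1 held a single match, NF-kB-like on the opposite strand, a motif found in 4.79% of 32851 promoter windows. Kitl held a single TATA-like match (13.6% of windows) and Flt3l a single ISRE-like match on the opposite strand (3.44% of windows). Each of the 2 annotated Il33 starts had a TATA-like match and no other. AP-1-like and GAS-like letters occurred in 7.81% and 8.30% of windows and in none of the 5 windows of these 4 genes; no match says only that the letters are not in the window.

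Among the lymphocyte survival genes, Il15 had the largest fitted change of the 7. Il15 (ENSMUSG00000031712, chromosome 8, 82331637 to 82403222, minus strand) read 6.98, 6.87, 12.2, 7.20 and 8.81 CPM over MCi 1 to 5. MRC 1 to 5 read 9.79, 8.81, 14.9, 35.9 and 21.7 CPM. MRC3, MRC4 and MRC5 lay above all MCi libraries, MRC3 by the least, and MRC1 and MRC2 lay inside the MCi range. The log2 fold change was 1.12 ± 0.40 (SE, n = 5 per group; edgeR adjusted p = 0.223, DESeq2 adjusted p = 0.0804). Without MRC4 and MRC5 it was 0.41 ± 0.31 (edgeR adjusted p = 0.661), close to the 0.37 ± 0.38 of numbers 1 to 3 alone. In numbers 4 and 5 alone, where 26.2% of all genes passed, it was 1.78 ± 0.40 (edgeR adjusted p = 0.0254). Epithelium is a known source of IL-15, and the 7 epithelium markers, all detected, summed to 10.7, 185, 2264, 13928 and 18206 CPM in MRC 1 to 5. MRC5 had the higher sum and MRC4 the higher Il15. Over MCi 1 to 5 the markers summed to 21.2, 984, 13.6, 688 and 678 CPM. Among MCi libraries, Il15 was lowest in MCi2, where the sum was highest, and highest in MCi3, where the sum was lowest. The part of epithelium in the Il15 values was not tested.

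Il7 (ENSMUSG00000040329, chromosome 3, 7569994 to 7613760, minus strand) read 46.4, 58.5, 52.9, 29.1 and 24.1 CPM over MCi 1 to 5. MRC 1 to 5 read 47.5, 67.6, 47.6, 86.7 and 38.9 CPM. MCi4 and MCi5 lay below all MRC libraries, and MRC2 and MRC4 above all MCi libraries, with the rest mixed. The log2 fold change was 0.45 ± 0.30 (edgeR adjusted p = 0.487), with 0.045 ± 0.21 in numbers 1 to 3 alone and 1.19 ± 0.42 in numbers 4 and 5 alone (edgeR adjusted p = 0.967 and 0.0931).

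Tslp, the alarmin gene that shares the Il7r chain (ENSMUSG00000024379), was at the edge of detection. It had 46 total exon reads over MCi and 55 over MRC, which came to 1.25 to 1.80 CPM among MCi libraries and to 5.25, 2.59, 0.874, 0.630 and 2.98 CPM over MRC 1 to 5. Of its 101 exon reads, 88 did not map uniquely, and the 13 unique reads were divided into 7 in MCi and 6 in MRC. Without the filter its log2 fold change was 0.65 ± 0.72 (edgeR adjusted p = 0.659), and no difference was detectable at this depth.

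Il33, the nuclear alarmin gene (ENSMUSG00000024810, chromosome 19, 29925114 to 29960718), was among the most abundant of the members and varied widely within both groups. MCi 1 to 5 read 235, 604, 480.3, 171 and 174 CPM. In MRC it was at 523, 588, 599, 453 and 180.4 CPM in libraries 1 to 5. MCi1, MCi4 and MCi5 were low, as was MRC5, while MCi2 was the highest of all 10. The log2 fold change was 0.49 ± 0.43 (edgeR adjusted p = 0.621), with 0.78 ± 0.43 without MRC4 and MRC5, 0.38 ± 0.31 in numbers 1 to 3 alone and 0.82 ± 0.44 in numbers 4 and 5 alone (edgeR adjusted p = 0.552, 0.830 and 0.223).

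**Figure D4:**
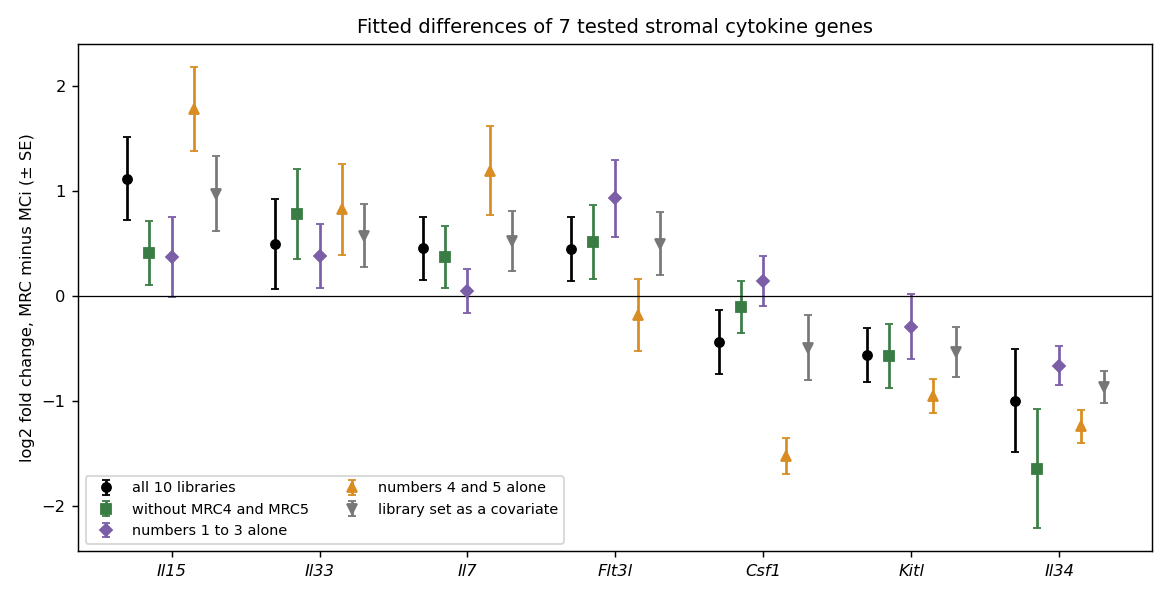
Fitted log2 fold changes (y axis, MRC minus MCi, with SE bars) of the 7 tested cytokine genes over all 10 libraries and in 4 other settings. Il34 and Kitl lie below 0 and Il15, Il33 and Il7 above 0 in each setting shown, while Csf1 and Flt3l change side.

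Receptor genes for these cytokines were mostly low in both populations. Of 11 receptor chain genes, 8 had enough reads, and 0 of these passed in edgeR (2 had an unadjusted p under 0.05, against 16.7% of all genes; DESeq2 called 1, Il1rl1, against 7.02%). The fitted change was below 0 for 7 of the 8, with a median of −0.49, against 0.01 over all genes tested. Il1rap, the accessory chain of the IL-33 receptor, was the most abundant at a mean of 76.7 ± 27.6 CPM (SD, n = 5) for MCi and 52.1 ± 29.6 for MRC (−0.56 ± 0.44 on the log2 scale; edgeR adjusted p = 0.574), but 42.0% of its exon reads were unique. Il15ra, the presenting chain for IL-15, averaged 24.7 ± 5.77 and 15.4 ± 6.26 CPM (−0.68 ± 0.31, edgeR adjusted p = 0.295). Ptprz1, which binds IL-34, spanned 14.9 to 42.8 CPM over MCi libraries, while MRC 1 to 5 held 0, 17.1, 5.68, 5.51 and 0 CPM (−1.96 ± 1.008 on the log2 scale; edgeR adjusted p = 0.368). It is also a gene of glia, whose 5 markers summed to 107 to 357 CPM over MCi and 4.78 to 78.7 over MRC libraries, and their part was not tested.

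Il1rl1, the ligand-binding chain of the IL-33 receptor, is named after its values were seen. MCi2 held 21.7 CPM, the other MCi libraries 2.15 to 4.35 and the MRC libraries 0 to 2.78 (−2.86 ± 0.97 on the log2 scale; edgeR adjusted p = 0.211, DESeq2 adjusted p = 0.0392). Csf1r of macrophages ranged from 0.451 to 2.63 CPM over MCi libraries and from 0 to 4.92 over MRC libraries. Kit, the receptor of KIT ligand, reached 8.19 CPM in MCi5 and 8.54 in MRC5 and was at 0 in MCi3, MRC3 and MRC4. Il7r had 14 reads, Il2rb 34 and Flt3 11 over all 10 libraries, too few to be tested.

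Signal relays below these receptors did not differ beyond the threshold either. Of 12 relay genes, 0 passed in edgeR (DESeq2 called 1, the same gene whose unadjusted edgeR p was under 0.05; over all genes these shares were 7.02% and 16.7%), with 6 above and 6 below 0. That gene was Jak2, a Janus kinase, named after its values were seen: its means were 58.7 ± 11.6 CPM for MCi and 97.0 ± 28.3 for MRC (0.72 ± 0.21, edgeR adjusted p = 0.171, DESeq2 adjusted p = 0.0336). Stat3 (406 ± 30.1 and 339 ± 58.2 CPM) and Jak1 (313 ± 45.4 and 295 ± 40.8 CPM) did not pass (edgeR adjusted p = 0.471 and 0.855). Of 4 sheddase genes, whose products release membrane-anchored ligands, 0 passed in edgeR or DESeq2 and 1 had an unadjusted p under 0.05, a share of 16.7% over all genes. Mmp14 averaged 559 ± 100.3 and 487 ± 151 CPM, Adam10 122 ± 18.5 and 86.6 ± 21.6 CPM, and Adam17 76.4 ± 13.4 and 81.0 ± 25.9 CPM in MCi and MRC.

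Other haematopoietic cytokine genes were low. Of 23 such genes, 4 had enough reads to be tested and 0 passed in edgeR (2 had an unadjusted p under 0.05, against 16.7% of all genes; DESeq2 called 1, Il18, against 7.02%). Il18, which epithelium also makes, did not exceed 3.99 CPM among MCi libraries, while MRC 1 to 5 held 1.91, 4.14, 23.8, 43.6 and 52.0 CPM (3.21 ± 0.97 on the log2 scale; edgeR adjusted p = 0.180, DESeq2 adjusted p = 0.00640). Without MRC4 and MRC5 its log2 fold change was 1.89 ± 0.95 (edgeR adjusted p = 0.498). Its levels over MRC 1 to 5 had the same order as the epithelial marker sums given above, and the part of epithelium was not tested. Il1b spanned 2.38 to 17.8 CPM over MCi libraries and 4.14 to 31.9 over MRC libraries. Il16 had means of 9.07 ± 5.30 CPM (MCi) and 2.80 ± 2.21 CPM (MRC; −1.72 ± 0.68, edgeR adjusted p = 0.251).

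Ratios of paired ligands within a library do not depend on how libraries are scaled. The 4 ratios chosen were compared by exact permutation tests (two-sided, 5 against 5 libraries, smallest possible p = 0.00794), adjusted over the 4. Kitl per exon length exceeded Flt3l by a log2 ratio of 1.91, 2.05, 0.11, 1.30 and 1.03 in MCi 1 to 5. In MRC 1 to 5 it was 0.60, 0.00023, −0.12, 0.38 and 0.38, near even. MCi3 sat with the MRC libraries, and the other MCi libraries lay above all of them. The means were 1.28 ± 0.78 (SD, n = 5) in MCi and 0.25 ± 0.30 in MRC, a difference of −1.03 (exact permutation p = 0.0317, adjusted p = 0.127), which does not pass the correction.

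The other ratios did not pass either. The log2 ratio of Il34 to Csf1 was −1.57, −0.55, −0.78, 0.15 and 0.30 over MCi 1 to 5, and −1.90, −1.88, −1.56, 0.36 and 0.68 in MRC 1 to 5 (exact permutation adjusted p = 0.815). Libraries 4 and 5 of either group had more Il34 than Csf1 per exon length, and the 6 libraries numbered 1 to 3 had less. Without MRC4 and MRC5 the difference was −1.29, from −0.37 over all libraries (exact permutation adjusted p = 0.143). Il7 to Il15 averaged 0.68 ± 0.63 in MCi and 0.22 ± 0.81 in MRC (exact permutation adjusted p = 0.683), and Il7 to Tslp 2.23 ± 0.52 and 2.39 ± 1.47 (exact permutation adjusted p = 0.833).

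**Figure D5:**
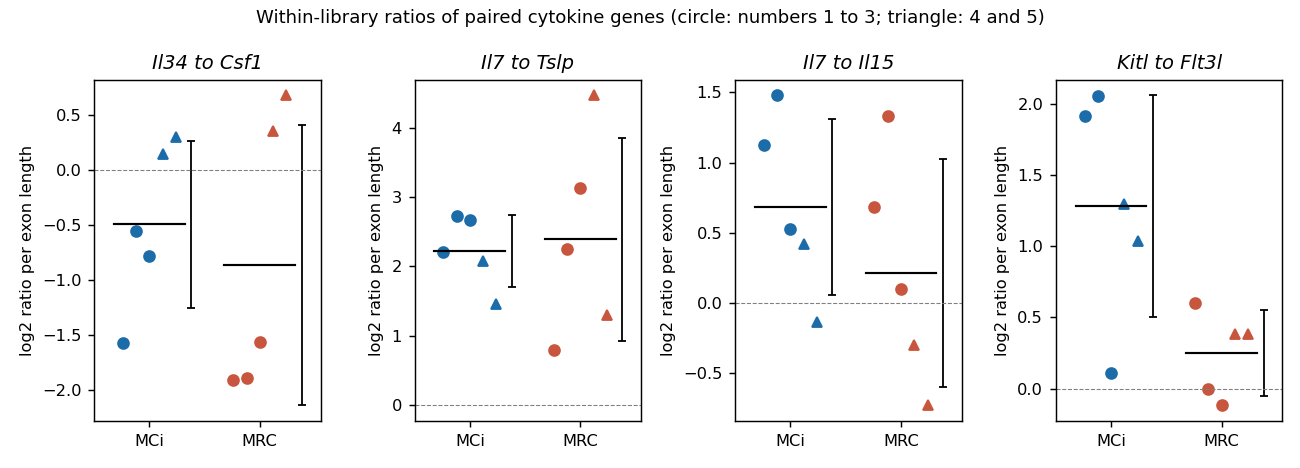
Log2 ratios of reads per exon length (y axis) for 4 pairs of cytokine genes in each library (circles, numbers 1 to 3; triangles, numbers 4 and 5; lines are means, bars 1 SD; the dashed line marks equal levels). Kitl to Flt3l is 1.03 or more in 4 MCi libraries and at most 0.60 in MRC, and Il34 to Csf1 is above 0 in the 4 libraries numbered 4 and 5.

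The genes whose log2 CPM followed each member most closely over the 10 libraries were looked up among genes of at least 10 CPM on average, and are given with Pearson's r as a description of these libraries, which share depth and the differences between numbers noted above. Il34 was closest to Gcnt2 (r = 0.94), Ano1 (0.93) and the growth factor gene Nrg1 (0.93). Nrg1 had means of 29.3 (MCi) and 12.6 CPM (MRC). Csf1 was closest to Tango6 (0.96), Dab2 (0.95), an endocytic adaptor gene at 111 and 88.2 CPM, and Zc3hc1 (0.95). Kitl was closest to Agpat4 (0.92), the neurotrophin gene Ntf3 (0.92) and the laminin gene Lama1 (0.91), with means of 73.0 (MCi) and 41.4 CPM (MRC). Il33 was closest to Vat1 (0.95), to Fap (0.93), the fibroblast activation protein gene at 27.0 and 57.6 CPM, and to the thyroid hormone receptor gene Thra (0.93). Il7 was closest to Vtn (0.93), the vitronectin gene at means of 19.0 (MCi) and 34.9 CPM (MRC), Usp34 (0.92) and Csad (0.92). Il15 was closest to Mir22hg (0.96) and Abcd4 (0.95), the former at 52.7 and 36.9 CPM in MRC4 and MRC5 and 9.75 to 26.0 CPM elsewhere. Flt3l was closest to 9130023H24Rik (0.91), Ccar2 (0.91) and Pdpr (0.88).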

How the data were processed

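RNA-seq libraries of MAdCAM1-negative (MCi, n = 5) and MAdCAM1-positive (MRC, n = 5) Peyer's patch mesenchymal cells were compared. Per the labels' protocols, RNA came from a micro column kit and cDNA from SMART-Seq v4 amplification, which does not mark strand; GRCm38 is the build in the submitters' processing notes, and the aligner is not given in the sources used here. Per the file headers, the authors deposited counts of total exon, unique exon, exon-exon, intron and gene reads per gene, with RPKM; the RPKM equalled exon reads scaled by exon length and by the total of gene reads. The deposited TPM values were not used, and 16517 genes with an exon length of 0 were not tested.

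Total exon reads were filtered with filterByExpr (minimum count 10, minimum total 15), scaled by TMM factors and tested in edgeR 4.0.16 (quasi-likelihood, robust; R 4.3.3) with Benjamini-Hochberg adjustment over 12127 genes at 0.05. SE is the absolute log2 fold change over the square root of F. Alternatives used DESeq2 1.42.0, limma 3.58.1 on log2(RPKM + 1) or log2(RPKM + 0.1), other factors, filters, read columns and left-out libraries. Within-library ratios added 1 read to each gene. The edgeR fit was tested on simulated counts. Reads carry no molecular identifiers, so the floor of 3 reads covers counting error only. The members, lists and ratios were chosen with earlier results of these data known; the leaving out of MRC4 and MRC5, the library sets and the promoter motifs were chosen after the data were seen. The text names all 8 members, the 3 most abundant genes and any gene past the threshold in each related list, and the 3 genes most like each member, except for genes that are not reported here. Of the marker lists, 1 leukocyte gene, Itgam, was not analysed here. Libraries of a group differed by more than counting noise (chi-square per degree of freedom 8.02 for MCi4 and MCi5, 20.9 or more for other pairs) and were each counted as 1 sample; as repeat amplifications of 1 sample would differ too, this does not show that they are separate samples. Ratios and permutation tests used scipy 1.17.1 under Python 3.11.15, with matplotlib 3.10.9 for plots.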

Additional observations from a re-analysis of the deposited data

Results flagged for a closer look

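Among 46 groups of 5 values of the named genes and ratios, 5 held a library whose gap to the next was more than 0.71 of the range of its group; chance gives such a gap in about 1 in 20 groups. None of these 5 concerned one of the 8 cytokine genes. MCi3 stood highest for Mmp14 (732 CPM), Il1rap (125 CPM) and Ptprz1 (42.8 CPM) among the MCi libraries. In MRC, MRC4 stood lowest for Adam10 (48.3 CPM) and MRC3 highest for Il1b (31.9 CPM).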

How the results depend on the processing

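The count of 53 genes past the threshold was 851 with DESeq2; 244, 159 and 149 with limma on log2(RPKM + 1), on log2(RPKM + 0.1) and without a filter; and 12 at a threshold of 0.01. It was 16 to 49 when 1 library was left out (16 without MCi5), 128 without MRC4 and MRC5, 95 in libraries 1 to 3, 3460 in libraries 4 and 5, and 206 with the library set as a covariate. The count of cytokine genes past the threshold stayed at 0 except for 4 in libraries 4 and 5 (Il15, Il34, Csf1 and Kitl) and 1 with the covariate (Il34); that of receptor genes was 0 except for 1 with DESeq2. Leaving out 1 library gave 0 cytokine and 0 receptor genes each time. Fitted directions of the 7 cytokine genes were kept in 173 of 175 other fits, the exceptions being Csf1 (0.14 in libraries 1 to 3) and Flt3l (−0.18 in libraries 4 and 5). The difference of Il7 to Tslp (0.16) was −0.076 with unique reads and −0.16 without MRC4 and MRC5, and −0.35 to 0.56 when 1 library was left out; that of Il7 to Il15 (−0.47) was 0.020 without MRC4 and MRC5. The causes were not tested. With the replicate number as a block, 49 genes and 0 cytokine genes passed. Deviations of same-numbered libraries correlated at −0.25 to 0.56, not every library did so best with its own number, and the labels do not say that numbers pair samples; for the ratios, the sign-flip test of 5 pairs gave Il7 to Il15 and Kitl to Flt3l, each lower in MRC in 5 of 5 pairs, an exact p of 0.0625, the smallest it can give (adjusted p = 0.125), from 0.341 and 0.0317 unpaired. Depth limits Tslp, Il7r, Il2rb and Flt3.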

Other observations

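Reads outside exons differed among the cytokine genes. Intron reads made up 36.6% of the gene reads of Il15, 32.2% of those of Tslp and 31.2% of those of Flt3l, against 0.864% for Csf1, 1.58% for Il33, 2.33% for Il7, 6.26% for Il34 and 7.96% for Kitl. For Il15 they were concentrated in 1 library: MRC4 held 214 intron reads beside 228 exon reads, while the other 9 libraries held 8 to 45 intron reads beside 31 to 109 exon reads. Counting gene reads in place of exon reads left the Il15 log2 fold change at 1.11 (edgeR adjusted p = 0.257).

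Read uniqueness differed too. Unique reads were 99.7% or more of the exon reads of Il15, Il33, Csf1, Kitl and Flt3l, but 86.2% for Il7, 74.9% for Il34 and 12.9% for Tslp. On unique exon reads the Il34 log2 fold change was −0.91 ± 0.48 (edgeR adjusted p = 0.361). Among the receptors, Il2rg (22.5%) and Il1rap (42.0%) had low shares of unique reads.

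Il1a, an alarmin gene below the filter, had 239 exon reads over MCi and 11 over MRC, of which 46.8% were unique, and was highest in MCi4 (17.5 CPM) and MCi5 (9.64 CPM). Csf2 had 0 reads in MCi and 28 in MRC, with 3.78 CPM in MRC4 and at most 0.437 CPM in any other library.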
